A study of Mus musculus with 9 samples.

Results

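Transcripts of 35 genes of the pancreas were followed through RNA sequencing of mouse omentum. The genes were taken as a list of symbols: 28 belong to acinar cells, 6 encode islet hormones and 1, Cftr, stands for the ducts, out of 55359 genes counted. All 35 were found in the count table by their Ensembl identifiers. The omentum is the apron of fat and lymphoid clusters that hangs from the stomach and lies against the pancreas.

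Every animal was a C57BL/6 mouse, 7 to 10 weeks old, that had received 500000 cells of the B16-OVA line into the peritoneal cavity. B16-OVA is a mouse melanoma engineered to make ovalbumin. On day 6 the IP group was given OVA-specific OT-I T cells carrying electroporated IL-12 mRNA through the peritoneum, the IV group was given the same kind of cells through a vein, and the PBS group was given saline, by a route not given in the sources used here. Omenta were collected 18 h later. There were 3 libraries a group, named by mouse number as IP 2, IP 3 and IP 4, IV 1, IV 2 and IV 4, and PBS 1, PBS 2 and PBS 3. T cells without IL-12 mRNA were not analysed here, so cells and cytokine cannot be told apart. In bulk tissue, fewer cells of a type and less RNA per cell cannot be told apart either.

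As background, acinar cells make up most of the exocrine pancreas and fill zymogen granules with digestive enzymes, many as inactive precursors. Their enzyme genes are switched on by the PTF1 complex, in which Ptf1a pairs with a common helix-loop-helix partner and with Rbpjl, and Bhlha15 (Mist1) shapes the secretory machinery. Islets are small clusters of endocrine cells scattered through the acinar tissue, in which beta cells make insulin, alpha cells glucagon, delta cells somatostatin and PP cells pancreatic polypeptide. Duct cells secrete bicarbonate-rich fluid through the Cftr chloride channel.

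The promoters of 3 acinar genes and 1 islet gene are printed because the PTF1 complex is known to read a paired sequence, an E box (CANNTG) followed by a TC box (TTTCCC), and these genes show the presence and absence of that pair among the members. Sequences are from RefSeq on GRCm38.p6 and cover the 250 bases before each start site, written along the strand of the gene. Capitals mark the paired letters, with a second E box beside the pair in Cela1, and in Ins1 the E boxes alone. In Cel the pair lies on the opposite strand, so that its TC box reads as GGGAAA.
Ctrb1 promoter, chr8:111691011-111691260, minus strand: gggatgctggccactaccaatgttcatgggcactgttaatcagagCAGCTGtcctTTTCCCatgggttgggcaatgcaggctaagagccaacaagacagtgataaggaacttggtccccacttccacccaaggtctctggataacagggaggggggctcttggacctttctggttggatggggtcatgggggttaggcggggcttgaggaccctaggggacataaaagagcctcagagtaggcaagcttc
Cel promoter, chr2:28563404-28563653, minus strand: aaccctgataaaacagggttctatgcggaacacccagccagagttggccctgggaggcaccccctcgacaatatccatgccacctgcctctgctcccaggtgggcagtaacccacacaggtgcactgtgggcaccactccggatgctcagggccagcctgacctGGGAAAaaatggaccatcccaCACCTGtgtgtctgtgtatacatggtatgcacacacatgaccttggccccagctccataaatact
Cela1 promoter, chr15:100687921-100688170, minus strand: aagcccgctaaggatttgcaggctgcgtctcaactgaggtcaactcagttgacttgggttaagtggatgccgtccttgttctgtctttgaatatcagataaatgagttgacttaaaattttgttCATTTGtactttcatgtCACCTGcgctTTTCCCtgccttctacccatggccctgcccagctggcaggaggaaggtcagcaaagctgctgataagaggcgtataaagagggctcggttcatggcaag
Ins1 promoter, chr19:52264047-52264296, plus strand: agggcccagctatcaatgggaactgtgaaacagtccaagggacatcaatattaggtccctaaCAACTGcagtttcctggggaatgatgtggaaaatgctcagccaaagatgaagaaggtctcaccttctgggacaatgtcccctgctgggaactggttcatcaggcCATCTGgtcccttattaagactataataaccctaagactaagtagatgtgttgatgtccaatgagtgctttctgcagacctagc

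Of the 35 genes, 30 had a promoter in the table, and Spink1, Ctrc, Zg16, Ins2 and Clps had none. An E box on either strand was present in 19 of 24 acinar promoters and in 4 of 5 islet promoters, against 66.2% of all 32851 promoters. The TC box occurred in 7 of 24 acinar and 0 of 5 islet promoters, against 21.9% of all, and also in that of Cftr. Both together, in this order and 1 to 25 bases apart, were found in Ctrb1, Cel and Cela1, that is 3 of 24 acinar and 0 of 5 islet promoters, against 2.39% of all. The letters TATAAA were in 5 of 24 acinar and 2 of 5 islet promoters, against 12.4%. These are matches of letters and not tests of binding.

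Library totals ran between 7379798 counts in IV 2 and 44626843 in PBS 3. Markers of the omentum itself were present in every group, with none of 11 adipocyte and 13 mesothelial genes at 0. The summed adipocyte level was 604 to 1021 CPM (counts scaled to library size with TMM factors) in IP, 1285 to 1744 CPM in IV and 754 to 1375 CPM in PBS. The mesothelial level was 151 to 334, 184 to 275 and 151 to 223 CPM in the same order of groups. The 334 CPM was in IP 4, where the keratin genes Krt8 and Krt18 had 64.0 and 86.6 CPM, against 3.19 and 4.54 CPM in IP 2. Both are also on the list of ductal genes read below, so this sum is not of mesothelial markers alone. Libraries IP 4, IV 1 and IV 2 stood apart from the rest in pancreatic transcripts, and each result below is therefore given by library. How these transcripts came into the libraries was not tested. The column headings carry a running number of unstated meaning, 6, 7 and 8 in IP, 9, 10 and 12 in IV and 1 to 3 in PBS, and the 3 libraries that stood apart bear 8, 9 and 10, so that order, mouse and level cannot be told apart there.

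The 28 acinar genes summed to 260.0, 311 and 22733 CPM in IP 2, IP 3 and IP 4, to 30946, 5456 and 18.9 CPM in IV 1, IV 2 and IV 4, and to 27.4, 25.6 and 19.96 CPM in PBS 1, PBS 2 and PBS 3. IP 4, IV 1 and IV 2 thus lay far above all others, IP 2 and IP 3 lay about an order of magnitude above PBS, and IV 4 lay just below the PBS libraries. As a share of all counts this was 2.16% in IP 4 (95% Wilson interval 2.15 to 2.16), 2.91% in IV 1 (2.90 to 2.91) and 0.554% in IV 2 (0.549 to 0.560), intervals that cover counting error only. The 6 islet hormone genes followed another order, with 0.362, 10.97 and 62.6 CPM in IP 2, IP 3 and IP 4, 3.42, 1.07 and 0.457 CPM in IV 1, IV 2 and IV 4, and 0, 0 and 0.163 CPM in the PBS libraries. Here IP 4 and IP 3 led, and IV 1, the library highest in acinar transcripts, came behind both. Cftr stayed between 0.0659 and 0.422 CPM in all 9 libraries, with its highest value in PBS 2.

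**Figure D1:**
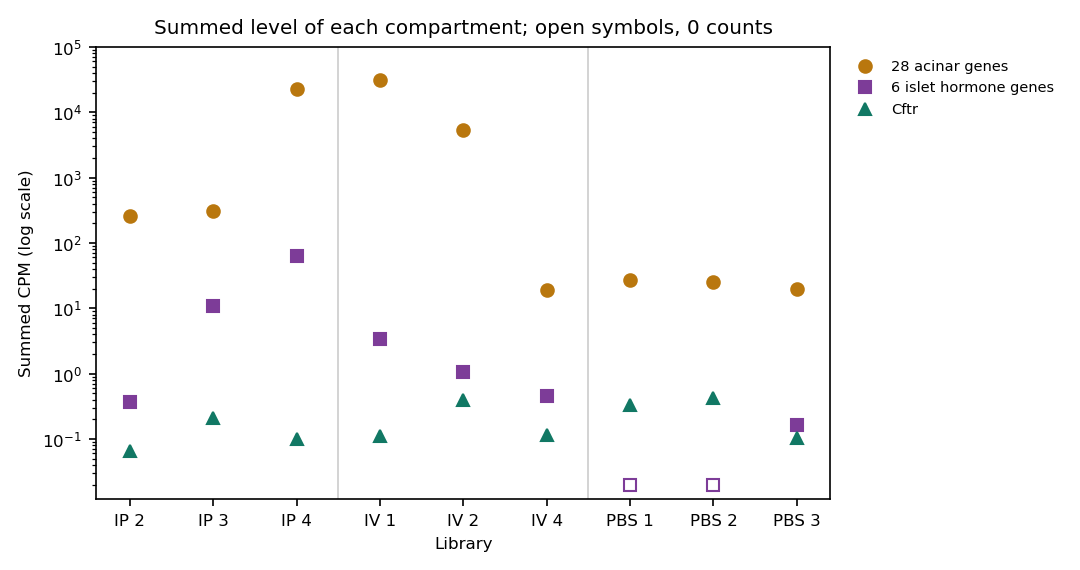
Summed TMM-scaled CPM (log axis) of the 28 acinar genes, the 6 islet hormone genes and Cftr in each of the 9 libraries, 1 point a library, with open squares for libraries at 0 counts. Acinar transcripts peak in IV 1 at 30946 CPM and IP 4 at 22733 CPM, islet transcripts in IP 4 at 62.6 CPM, and Cftr does not follow either.

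Libraries also differed in how many members were detected at equal depth. With every library thinned to 7379798 counts, 27, 30 and 33 of the 35 genes had at least 1 count in IP 2, IP 3 and IP 4, 32, 33 and 12 in IV 1, IV 2 and IV 4, and 20, 19 and 10 in PBS 1, PBS 2 and PBS 3. Over all genes at that depth, 23320 had at least 1 count in IV 2, against 19116 to 20336 in the other libraries. The part of this in the member count of IV 2 was not tested. Without thinning, the numbers of members were 31, 33 and 35 in IP, 33, 33 and 19 in IV and 26, 25 and 19 in PBS.

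The enzyme genes carried most of the signal. Ctrb1, which encodes chymotrypsinogen B, had 54.3, 61.0 and 7892 CPM in IP 2, IP 3 and IP 4, 5818, 1012 and 0.183 CPM in IV 1, IV 2 and IV 4, and 0.983, 0.729 and 0.0610 CPM in the PBS libraries. All IP libraries lay above all PBS libraries, whereas IV 4 lay within the PBS range. Pnlip, the main lipase for dietary fat, had 28.1, 39.1 and 1662 CPM in IP, 3932, 845 and 0.0685 CPM in IV, and 0.710, 0.269 and 0.0406 CPM in PBS, in the same order of libraries. Its cofactor colipase, Clps, had 18.3, 41.4 and 663 CPM in IP, 1196, 222 and 0 CPM in IV, and 0.464, 0.576 and 0 CPM in PBS. Both showed the same pattern of high, intermediate and low libraries.

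The other lipid enzymes kept that pattern. Cel, the bile salt-activated ester lipase, had 2.11, 5.17 and 323 CPM in IP, 1004, 123 and 0.0228 CPM in IV, and 0.492, 0.0384 and 0.0203 CPM in PBS. Pnliprp1 and Pnliprp2, relatives of Pnlip of which the second cuts galactolipids, reached 778 and 90.4 CPM in IP 4, 1186 and 156 CPM in IV 1 and at most 0.269 and 0.0384 CPM in PBS. Pla2g1b, the secreted phospholipase A2 of pancreatic juice, reached 77.9 CPM in IP 4 and 113 CPM in IV 1, against at most 0.154 CPM in PBS.

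Among the proteases, trypsinogen 2 (Prss2) had 7.84, 11.7 and 1336 CPM in IP, 1673, 247 and 0.114 CPM in IV, and 0.218, 0.154 and 0.102 CPM in PBS. Carboxypeptidase A1 (Cpa1) had 13.6, 14.8 and 863 CPM in IP, 1797, 275 and 0.0913 CPM in IV, and 0.164, 0.345 and 0 CPM in PBS. Carboxypeptidase B1 (Cpb1), which removes basic C-terminal residues, reached 687 CPM in IP 4 and 1576 CPM in IV 1, against at most 0.382 CPM in PBS. The IV 1 value was above that of IP 4 for all 3. The elastase genes Cela2a and Cela3b had 1295 and 1256 CPM in IP 4, 2401 and 1333 CPM in IV 1, and at most 0.519 and 0.273 CPM in PBS. Rnase1, the pancreatic ribonuclease, reached 353 CPM in IP 4 and 739 CPM in IV 1, against at most 0.191 CPM in PBS.

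3 protease genes departed from this. Cela1, another elastase gene, was well above 0 in every library, with 38.1, 38.9 and 2199 CPM in IP, 3580, 720 and 8.86 CPM in IV, and 15.1, 18.0 and 12.9 CPM in PBS, so that it had the highest level in PBS of the 35 genes, per kilobase of exon too. Ctrl, a chymotrypsin-like protease, had 7.77, 7.37 and 746 CPM in IP, 1265, 192 and 2.21 CPM in IV, and 1.37, 0.422 and 1.38 CPM in PBS. In it, unlike Ctrb1, IV 4 lay above all PBS libraries. Ctrc, chymotrypsin C, which degrades trypsinogen, was the lowest enzyme gene, with 9, 0 and 202 counts in IP, 445, 29 and 0 counts in IV, and 3, 0 and 4 counts in PBS.

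The granule and accessory genes repeated the order of the enzymes. Zg16, a lectin of the zymogen granule, had 16.6, 14.4 and 574 CPM in IP, 942, 247 and 0.0685 CPM in IV, and 0.437, 0.307 and 0.0203 CPM in PBS. Reg1, a secreted lectin, had 12.1, 9.53 and 843 CPM in IP, 870.3, 159.6 and 0 CPM in IV, and 0.300, 0.115 and 0 CPM in PBS. Syncollin (Sycn), which binds the granule membrane from inside, and Gp2, the main membrane glycoprotein of the granule, reached 437 and 112 CPM in IP 4, 478 and 259 CPM in IV 1, and at most 0.230 and 0.109 CPM in PBS. Spink1, the trypsin inhibitor of pancreatic juice, was higher in IP 4 than in IV 1, at 147 and 87.9 CPM, and reached 0.0819 CPM in PBS.

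Klk1, tissue kallikrein, a kinin-releasing protease that salivary gland and kidney also make, had 6.45, 6.01 and 332 CPM in IP, 409, 85.5 and 2.15 CPM in IV, and 0.218, 0.768 and 0.488 CPM in PBS. As with Ctrl, IV 4 lay above all PBS libraries. Cuzd1, a protein of the granule membrane, reached 28.6 CPM in IP 4 and 70.3 CPM in IV 1, against at most 0.230 CPM in PBS, and Tmed6, a member of the p24 family of cargo receptors, reached 7.52 and 15.6 CPM against at most 0.0384 CPM. Aqp12, an aquaporin of acinar cells, had 1, 2 and 150 counts in IP, 299, 9 and 0 counts in IV, and 0 in each PBS library. Against a floor of 3 counts over the PBS group, its mean was at least 64.3-fold higher in IP and at least 150.1-fold higher in IV. IP 4 held 150 of the 153 IP counts, and without it the mean stood at 2.19 times that floor. Without IV 1 the mean in IV stood at 22.4 times the floor.

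**Figure D2:**
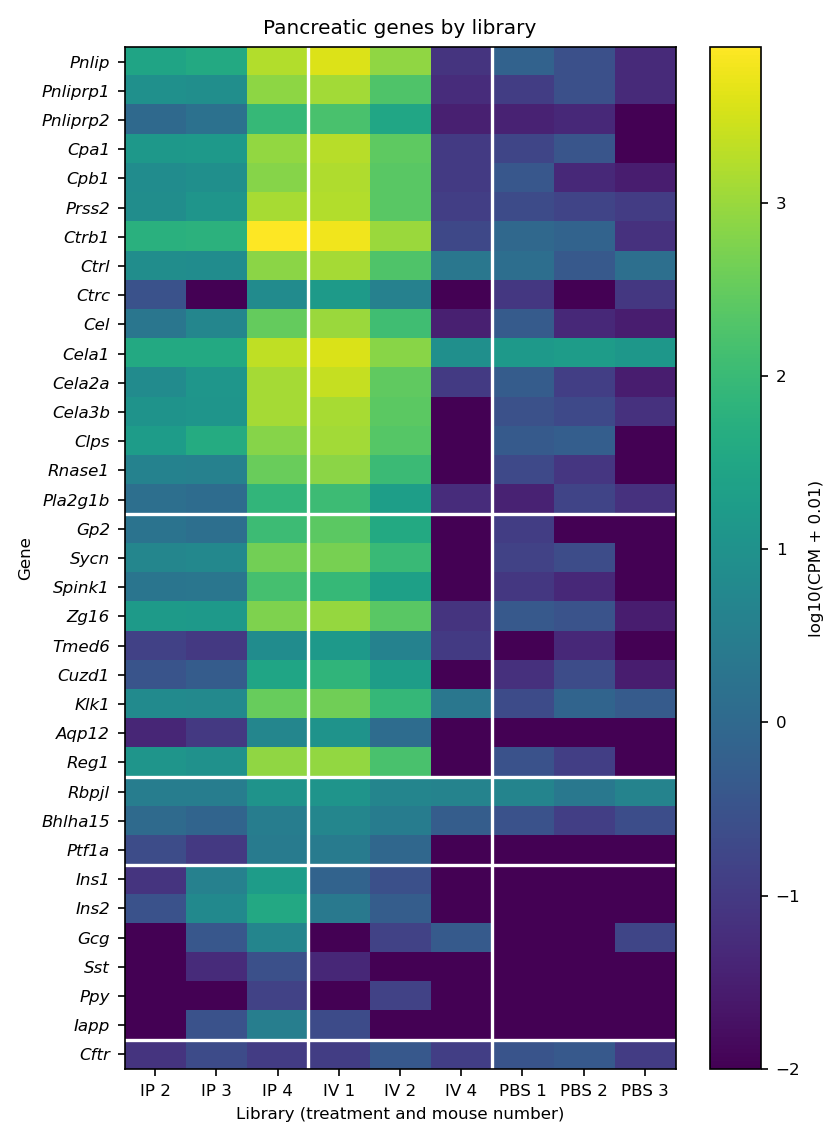
Level of the 35 genes (rows, grouped as enzymes, granule and accessory proteins, transcription factors, islet hormones and Cftr) in the 9 libraries (columns), as log10 of CPM plus 0.01. Acinar genes are bright in IP 4, IV 1 and IV 2, and the islet genes in IP 3 and IP 4, while Cela1 and Rbpjl keep a level of their own in PBS.

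The 3 transcription factor genes behaved differently from one another. Ptf1a, the factor that defines the acinar lineage, had 7, 2 and 84 counts in IP, 78, 7 and 0 counts in IV, and 0 in each PBS library, and its mean was at least 39.1-fold higher in IP and at least 46.9-fold higher in IV than the PBS floor. It was therefore seen only in IP 2, IP 3, IP 4, IV 1 and IV 2. Without IP 4 the first bound was 5.88-fold, and without IV 1 the second was 17.4-fold. Rbpjl had 3.16, 3.13 and 10.4 CPM in IP, 11.1, 4.80 and 4.27 CPM in IV, and 4.64, 2.26 and 4.39 CPM in PBS. The groups overlapped, and only IP 4 and IV 1 stood clearly above PBS. Bhlha15 had 1.09, 0.804 and 3.07 CPM in IP, 4.98, 2.93 and 0.525 CPM in IV, and 0.300, 0.115 and 0.244 CPM in PBS, so that every treated library, IV 4 included, lay above every PBS library. On the counts this was 33, 19 and 91 in IP, 137, 22 and 23 in IV, and 11, 3 and 12 in PBS.

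The insulin genes were at 0 counts in all PBS libraries and in IV 4. Ins2, the mouse gene that resembles insulin of other mammals, had 9, 151 and 1054 counts in IP 2, IP 3 and IP 4, and 66, 4 and 0 counts in IV 1, IV 2 and IV 4. Ins1, the second insulin gene, found in mice and rats, had 2, 91 and 547 counts in IP and 21, 2 and 0 counts in IV. Against the floor of 3 counts over the PBS group, mean Ins2 was at least 525-fold higher in IP and at least 36.5-fold higher in IV, and mean Ins1 at least 278-fold and at least 12.8-fold higher. Without IP 4 the bounds for IP were 125-fold for Ins2 and 73.1-fold for Ins1, and without IV 1 those for IV were 9.95-fold and 4.97-fold. Reads of Ins1 and Ins2, like those of the trypsin, elastase, kallikrein and Reg families, may have been split between near-identical copies, so single values in these families are uncertain.

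Iapp, the amyloid polypeptide released with insulin, had 0, 7 and 101 counts in IP, 6, 0 and 0 counts in IV, and 0 in each PBS library, so that it was seen in 3 of the 5 libraries with insulin counts. Gcg, the glucagon gene, had 0, 9 and 142 counts in IP, 0, 1 and 20 counts in IV, and 0, 0 and 8 counts in PBS 1, PBS 2 and PBS 3. Gcg was thus present in IV 4 and PBS 3 without a single insulin count, where a count of 0 allows up to 0.0685 and 0.0610 CPM, and absent from IV 1 with its 87 insulin counts. Sst, somatostatin, reached 8 counts in IP 4, 1 count in IV 1 and 0 in PBS, and Ppy, pancreatic polypeptide, 4 counts in IP 4, 1 count in IV 2 and 0 in PBS. Sst, Ppy and Iapp did not pass the filter on low counts and were not tested. IP 4 was the only library with all 6 hormones.

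Cftr, the ductal gene, had 2, 5 and 3 counts in IP, 3, 3 and 5 counts in IV, and 12, 11 and 5 counts in PBS. Scaled to library size, it had 0.101, 0.109 and 0.400 CPM in IP 4, IV 1 and IV 2, the last from 3 counts. The PBS libraries had 0.102 to 0.422 CPM, so none of these libraries rich in acinar transcripts lay above the PBS range. The ductal name thus rests on 1 gene near the limit of detection, and no ductal signal above that of PBS was detectable with it at this depth.

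Set against the acinar genes, the islet signal ran over a wide range, and the intervals given here cover counting error and not the spread between mice. Per 1000 counts of insulin and acinar genes together, the insulin genes had 1.39 (95% Wilson interval 0.777 to 2.49) in IP 2, 31.9 (28.2 to 36.1) in IP 3, 2.37 (2.25 to 2.49) in IP 4, 0.102 (0.0829 to 0.126) in IV 1 and 0.147 (0.0672 to 0.320) in IV 2. The 3 IP libraries lay above the 2 IV libraries, and IP 3, with a low acinar level, had the highest ratio. The number of libraries is too small to read this as a difference between routes. The IP to IV contrast called neither insulin gene (adjusted p = 0.238 for Ins1 and 0.345 for Ins2, edgeR). That contrast compared levels scaled to library size, with IV 4 included, so it is not a test of the ratio to acinar counts. The Reg3 genes, which encode secreted lectins induced in acinar tissue under stress, varied as well: Reg3a, Reg3b, Reg3d and Reg3g together had 44.5 (40.3 to 49.2) per 1000 in IP 2, 21.1 (18.0 to 24.6) in IP 3, 31.7 (31.3 to 32.1) in IP 4, 6.41 (6.24 to 6.58) in IV 1 and 0.709 (0.493 to 1.02) in IV 2. By contrast Tff2, a trefoil peptide first isolated from pig pancreas and abundant in stomach, kept close to a fixed ratio, with 5.54 (4.13 to 7.43), 6.22 (4.67 to 8.29) and 6.58 (6.39 to 6.78) per 1000 in IP 2, IP 3 and IP 4, and 5.93 (5.77 to 6.10) and 6.90 (6.14 to 7.74) in IV 1 and IV 2.

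**Figure D3:**
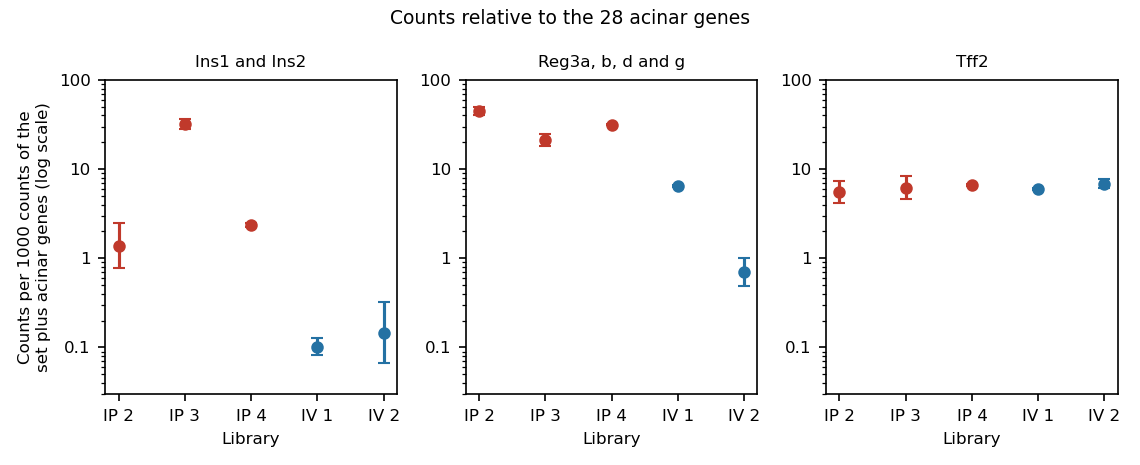
Counts of the insulin genes, the Reg3 genes and Tff2 per 1000 counts of that set plus the 28 acinar genes (log axis), in the 5 libraries with acinar signal, with 95% Wilson intervals for counting error. Insulin spans 0.102 to 31.9 and the Reg3 genes 0.709 to 44.5, while Tff2 stays between 5.54 and 6.90.

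Within the acinar transcripts the make-up was similar in the 5 libraries with signal, with exceptions. Ctrb1 was the leading gene in each, at 20.9%, 19.6% and 34.7% of acinar counts in IP 2, IP 3 and IP 4 and 18.8% and 18.6% in IV 1 and IV 2. IP 4 had the highest share. Per kilobase of exon Ctrb1 also ranked first in all 5, at 61.9, 69.5 and 8989 CPM per kb in IP 2, IP 3 and IP 4 and 6626 and 1153 CPM per kb in IV 1 and IV 2. Clps followed in rank 2 or 3 per kilobase in each of them, and Ptf1a, Aqp12 and Bhlha15 were among the last 6 in each of the 5. Clps held 13.3% of acinar counts in IP 3, against 2.92 to 7.05% in the other 4 libraries.

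**Figure D4:**
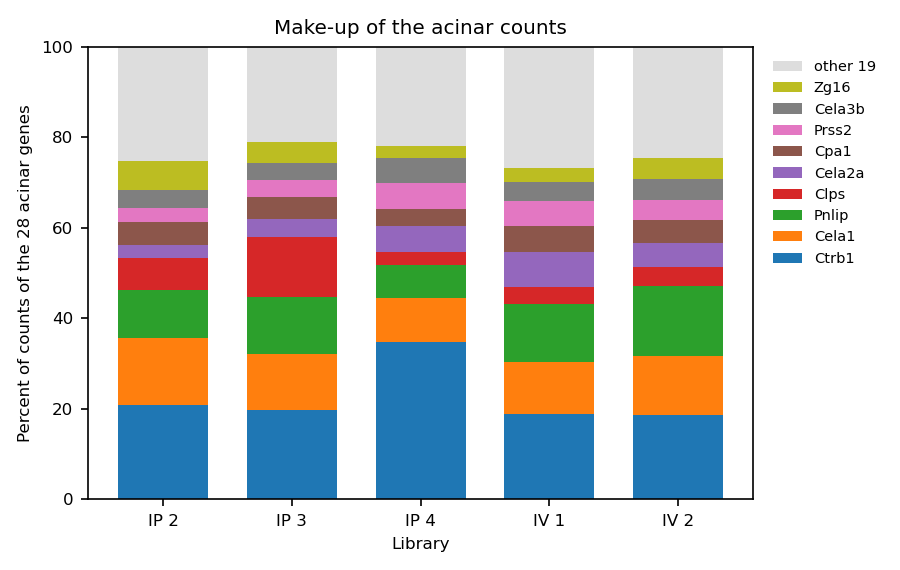
Share of each of the 9 leading genes, and of the other 19 together, in the counts of the 28 acinar genes (percent, stacked), in the 5 libraries with acinar signal. Ctrb1 holds 34.7% in IP 4 and 18.6 to 20.9% in the other 4, and Clps is largest in IP 3 at 13.3%.

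The small acinar sums of the remaining libraries were made of other genes. Cela1 held 46.7% of them in IV 4 and 55.2%, 70.6% and 64.7% in PBS 1, PBS 2 and PBS 3, and Rbpjl 22.5% in IV 4 and 16.9%, 8.86% and 22.0% in PBS. Ctrl and Klk1 added 11.7% and 11.3% in IV 4. Ctrb1 held 0.964% in IV 4 and 0.305 to 3.59% in PBS. The 24 acinar genes other than Cela1, Rbpjl, Ctrl and Klk1, a subset taken after the values were seen, summed to 205, 256 and 19445 CPM in IP, 25681, 4454 and 1.46 CPM in IV, and 6.06, 4.07 and 0.793 CPM in PBS.

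The question of whether treatment moved these genes was asked with edgeR's quasi-likelihood test over all 17123 genes that passed the filter, 32 of the 35 among them. Between IP and PBS 1 of the 32 passed an adjusted p of 0.05, Bhlha15, which was higher in IP by a log2 fold change of 2.85 ± 0.83 (SE, adjusted p = 0.0218). Of all genes tested 32.9% passed in this comparison, 18.7% as higher, so the share among the pancreatic genes was below the background. Between IV and PBS again Bhlha15 alone passed, at 3.59 ± 0.84 (adjusted p = 0.0178), against a background of 16.1%, 10.4% as higher. Between IP and IV 0 of 32 passed, against a background of 10.4%. At an unadjusted p under 0.05 the number was also 0, against 25.7% of all genes, and it was 0 by DESeq2's Wald test (13.9% of all genes) and by limma voom (10.5%). Bhlha15 lost its call between IP and PBS without IP 4 (2.05, adjusted p = 0.104) and without any 1 of the 3 PBS libraries, and between IV and PBS without IV 1 (2.69, adjusted p = 0.0719), PBS 1 or PBS 2.

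Folds of the other acinar genes were large and their errors were large too. Pnlip had a log2 fold change of 10.76 ± 3.89 between IP and PBS (adjusted p = 0.0816) and 12.23 ± 4.07 between IV and PBS (adjusted p = 0.0956). For Ctrb1 the values were 12.19 ± 4.32 (adjusted p = 0.0768) and 11.96 ± 4.28 (adjusted p = 0.114). Without IP 4 the values between IP and PBS were 6.66 for Pnlip and 6.67 for Ctrb1. Over the 28 acinar genes the median was 9.82 between IP and PBS, with all 28 positive and 21 at an unadjusted p under 0.05, and 10.76 between IV and PBS, with all 28 positive and 26 at an unadjusted p under 0.05. Ptf1a and Aqp12, at 0 in PBS, enter these medians as fitted values, and the medians were the same with both at their lower bounds. Over all genes tested the medians were 0.0199 and 0.0427, with 51.3% and 53.7% positive and 42.3% and 31.5% at an unadjusted p under 0.05. Most of the 28 were near 0 in PBS and passed the filter on low counts through treated libraries where they were high. Their positive folds and unadjusted p-values were thus partly set in advance, and the shares of all genes are no like-for-like background for them. Cela1 had 5.63 ± 2.53 and 6.55 ± 2.64, and Rbpjl 0.56 ± 0.53 and 0.84 ± 0.53, the smallest of the 28. Without IP 4, Cela1 had 1.33 between IP and PBS. Without IV 1, the values between IV and PBS were 4.56 for Cela1, 0.24 for Rbpjl, 10.31 for Pnlip and 9.80 for Ctrb1. Rbpjl turned to -0.27 between IP and PBS without IP 4.

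All 3 IP libraries lay above all 3 PBS libraries for 26 of the 28 acinar genes, the exceptions being Ctrc and Rbpjl, and for Ins1 and Ins2, where 28.4% of all genes tested did so. Most of these genes were near or at 0 in PBS and passed the filter through treated libraries. The number of them above PBS was thus partly set in advance, and it is given as a description. All 3 IV libraries lay above all PBS libraries for 4 of the 28, Bhlha15, Ctrl, Klk1 and Tmed6, against 16.5% of all genes. Leaving out IV 4 brought the members passing to 11 between IP and PBS, against 37.3% of all genes, and to 7 between IV and PBS, against 26% of all genes. The call counts also differed between tools. Between IP and PBS, DESeq2's Wald test passed 28 members (30.5% of all genes), edgeR without robust estimation 23 (33%) and limma voom 0 (34.1%). Between IV and PBS they passed 27 (19.7%), 21 (16.2%) and 0 (15%). Cftr, at -1.13 ± 0.76 (adjusted p = 0.292) and -0.78 ± 0.78 (adjusted p = 0.539), was the only tested member with folds below 0 in both comparisons. Gcg had 4.63 ± 1.72 (adjusted p = 0.0642) between IP and PBS and 1.75 ± 1.91 (adjusted p = 0.581) between IV and PBS. Without IP 4 the first was 1.42, and without IV 4 the second was -1.01. The comparisons with PBS share its 3 libraries.

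**Figure D5:**
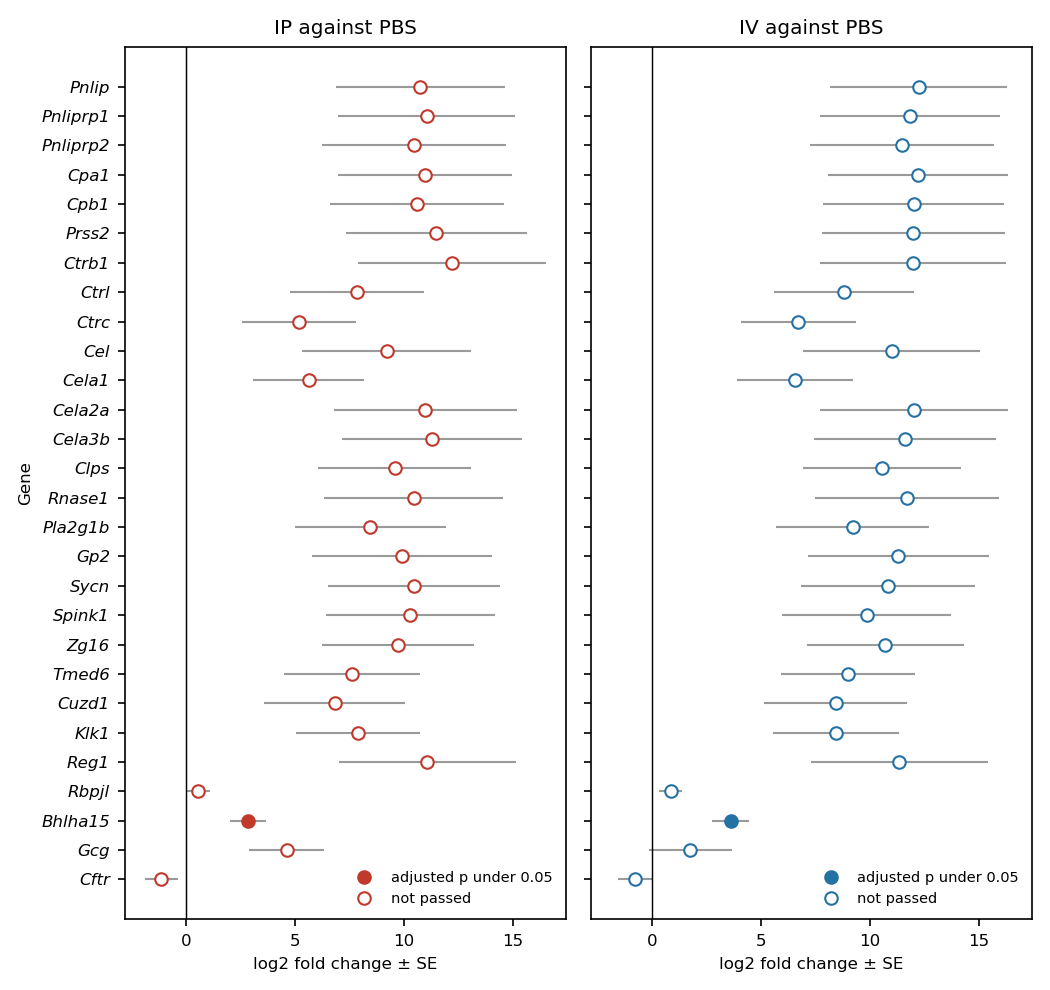
log2 fold change with its SE (edgeR) of the 28 tested genes that had at least 1 count in PBS, between IP and PBS (left) and between IV and PBS (right). Filled points passed an adjusted p of 0.05: Bhlha15 alone, at 2.85 and 3.59.

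Bhlha15 is also a gene of plasma cells. Of 9 tested plasma cell genes 4 were called higher between IP and PBS (Prdm1, Irf4, Tnfrsf13b and Sdc1), against 18.7% of all genes. Between IV and PBS 6 were called higher (Jchain, Pou2af1, Prdm1, Derl3, Tnfrsf13b and Mzb1), against 10.4% of all genes, and Sdc1 lower. The 10 listed genes summed to 178 to 236 CPM in IP, 181 to 394 CPM in IV and 99.1 to 128 CPM in PBS, none of them at 0 in a whole group. Their part in the Bhlha15 result was not tested. In IV 4 the plasma cell sum was 181 CPM and Bhlha15 0.525 CPM, in a library with 0 counts of Ptf1a.

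Further pancreatic genes were read from lists of 24 acinar, 30 islet and 20 ductal genes, whose calls stand against the 18.7% and 10.4% of all genes called higher in IP and in IV than in PBS. Of 22 acinar genes tested, Gatm, an enzyme of creatine synthesis, and Nupr1, a stress-induced chromatin protein, were called higher between IP and PBS and Tmem97 lower, and Gatm and the zinc transporter gene Slc39a5 were called higher between IV and PBS. The median log2 fold changes were 9.33 and 9.15. Try4 and Try5, trypsinogen genes, had 21791 and 18901 counts in IP 4, 30125 and 19292 in IV 1, 4 and 0 in IV 4, and at most 5 and 3 in PBS. Nupr1 was not tied to the acinar level alone, with 131, 106 and 640.3 CPM in IP, 169, 79.6 and 25.3 CPM in IV, and at most 25.6 CPM in PBS, and IP 2 and IP 3 lay well above PBS. Amylase, often the first enzyme measured, was low in these counts. Amy2b had 617 counts in IP 4 and 558 in IV 1, and Amy2a5 33 and 97, with 0 of either in PBS. As in the gene families named above, reads of amylase genes may have been split between near-identical copies, so these values are uncertain.

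Of the further islet genes, Hhex, a homeobox factor also made outside islets, was called higher between IP and PBS and between IV and PBS. It was not highest where insulin was, with 9.06, 9.02 and 10.3 CPM in IP, 8.40, 19.2 and 13.5 CPM in IV, and 3.91, 3.45 and 6.02 CPM in PBS. The median log2 fold changes over the 11 genes tested were 0.29 and 1.06. Cpe and Chga, which encode proteins of endocrine granules, were present at 376 to 424 and 1.09 to 5.26 CPM in IP, 284 to 432 and 2.81 to 7.47 CPM in IV, and 476 to 545.5 and 1.94 to 3.03 CPM in PBS, without a call. Genes closer to islets were near the limit of detection. Nkx2-2, a transcription factor of endocrine cells, had 14 counts in IP 4, 2 in IV 1, 8 in IV 2 and 0 in the other libraries, and Neurod1 had 1 count in IV 1, 10 in IV 2 and 0 elsewhere, IP 4 included. IV 2 held low counts of many genes, 23320 genes with at least 1 count at 7379798 counts in all, against 19116 to 20336 in the other 8 libraries thinned to that depth. Its part in these values was not tested.

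Of 16 further ductal genes tested, Muc1, Cldn7 and Ehf were called higher between IP and PBS and Muc1 between IV and PBS, with medians of 2.08 and 1.55. Muc1, a mucin of many epithelia, had 3.95, 5.04 and 13.5 CPM in IP, 10.7, 1.87 and 2.53 CPM in IV, and 0.246, 0.768 and 0.955 CPM in PBS. The keratins of simple epithelia Krt8 and Krt18, which mesothelium also makes, were highest in IP 4, at 64.0 and 86.6 CPM, with 16.3 and 32.9 CPM in IV 1 and 3.45 to 4.88 and 2.81 to 4.26 CPM in PBS, and neither was called. Krt19 and Sox9, common markers of ducts, were highest in IV 1, at 77.9 and 25.8 CPM, against 31.8 to 46.3 and 8.98 to 17.4 CPM in the other 8 libraries, and neither was called. Spp1 had 343 to 437 CPM in IP, 228 to 402 CPM in IV and 395 to 457 CPM in PBS, also without a call.

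Lists of neighbouring organs were read for the same libraries. Stomach genes summed to 1.65, 2.03 and 151 CPM in IP, 185, 39.0 and 0.297 CPM in IV, and 0.102 to 0.164 CPM in PBS. In IP 4, IV 1 and IV 2 nearly all of it was Tff2. Tff2 had 4469 counts in IP 4, 5077 in IV 1 and 284 in IV 2 but 0 in IV 4 and PBS. Gkn3 had 4, 0 and 4 counts in IP, 4, 0 and 5 in IV, and 5, 3 and 5 in PBS. Atp4a had 0, 2 and 2 counts in IP, 1, 6 and 3 in IV and 0 in PBS, and Sult1c2 at most 6, in IV 1. Gkn2 and Lipf were at 0 in every library. Pgc, Tff1, Gkn1 and Muc5ac had at most 1 count in IP, 4 in IV and 0 in PBS. In all, 4 of 12, 4 of 12 and 9 of 12 genes were at 0 throughout IP, IV and PBS. Intestinal genes summed to 10.6 to 12.7 CPM in IP, 12.7 to 14.9 CPM in IV and 9.98 to 12.4 CPM in PBS, with Cdx2 at 0 in IP, at most 2 counts in IV and 0 in PBS. Liver genes summed to 4.18 to 4.48 CPM in IP, 8.56 to 19.2 CPM in IV and 5.76 to 10.8 CPM in PBS, with Alb at 8 counts or fewer in every library. Salivary genes summed to 3.59 to 11.9 CPM in IP, 5.96 to 12.4 CPM in IV and 3.57 to 8.62 CPM in PBS, nearly all of it Amy1, with Prol1 and Dcpp1 at 0 in every library. Spleen and erythroid genes, mostly globins, summed to 20.5 to 35.6 CPM in IP, 12.5 to 51.6 CPM in IV and 9.50 to 11.97 CPM in PBS, and 4 and 3 of 8 tested were called higher in IP and in IV than in PBS, against 18.7% and 10.4% of all genes. Of 4 intestinal genes tested Muc2 was called higher and Lct lower between IP and PBS, and of 5 liver genes Hpx higher and Cyp2e1 lower, with 0 of either list called between IV and PBS by edgeR (0 also at an unadjusted p under 0.05). Their part in the pancreatic values was not tested.

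Outside the 35, the genes whose profile over the 9 libraries was most like the acinar sum were ranked by overlap, the sum over libraries of the smaller of the 2 shares, among 12795 genes with a mean of at least 1 CPM. Among the first 15 were Klk1b5 (98.8%), Try4, Tff2, Try5, Dmbt1, Erp27, Amy2b, Try10, Cbs, Cckar, Hsd17b13, Pcbd1, Gal and Serpini2 (85.5%), against a median overlap of 32.2%. 8 of these 15 were on the list of further acinar genes. Cckar, the cholecystokinin receptor gene through which a gut hormone drives acinar secretion, had 8, 8 and 450 counts in IP, 353, 18 and 0 counts in IV, and 0 in each PBS library. Gal, which encodes the neuropeptide galanin, had 12, 12 and 189 counts in IP, 347, 5 and 0 counts in IV, and 1 in each PBS library. Among the members themselves the overlap ran between 98.4% for Pla2g1b and 81.1% for Spink1 over the enzymes and granule genes measured, and was 67.5% for Bhlha15, 54.9% for Rbpjl, 45.5% for Ins2 and 43.2% for Ins1. Each acinar member is itself part of the acinar sum, so its overlap is partly set in advance, whereas Ins1 and Ins2 are not part of it. These overlaps describe 9 libraries and carry no test.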

How the data were processed

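RNA from omenta was sequenced as poly(A) libraries with a directional kit, per the labels' protocols. The authors deposited a table of read counts for 55359 Ensembl genes and a table of log2 CPM for 18833 of them. The submitters' processing notes name STAR 2.7.9, featureCounts, limma and mm39, without roles, while annotation and strand setting are not given there. The deposited log2 CPM values equalled log2 of the counts with 0.5 added, scaled to library total, so the counts were used. Of the 55359 identifiers 52083 had a symbol in the GENCODE M21 table.

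Counts passing edgeR's expression filter (17123 genes) were scaled by TMM and fitted over all 9 libraries with robust quasi-likelihood (edgeR 4.0.16, R 4.3.3), with Benjamini-Hochberg adjustment over all genes and a threshold of 0.05. SEs were derived from the F statistic. Each library is a separate mouse, per the labels. Totals lay between 7379798 and 44626843 counts, and no library repeated another. Shares have Wilson 95% intervals, and a count of 0 was read against 3 counts. Promoters come from RefSeq on GRCm38.p6, not the files' build. The fit was tested on simulated data first. Alternatives used limma 3.58.1 and DESeq2 1.42.0. Members and lists were chosen with earlier results of these data known. All members are described. Of other lists, the 4 genes with the highest mean CPM and those that passed the test were named, and others named were chosen after their values were seen. Some genes of these lists are not reported here.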

Additional observations from a re-analysis of the deposited data

Results flagged for a closer look

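Gatm, on the list of further acinar genes and also made in kidney, was the gene of the pancreatic lists whose IP and IV libraries differed by a test of the difference itself. It had 1521, 1148 and 1612 counts in IP 2, IP 3 and IP 4, 855, 210 and 1037 counts in IV 1, IV 2 and IV 4, and 530, 345 and 817 counts in PBS 1, PBS 2 and PBS 3. The log2 fold change between IP and IV was 0.89 ± 0.14 (SE, edgeR quasi-likelihood test, adjusted p = 0.00371), against a background of 10.4% of all genes passing. It did not follow the acinar sum, which was highest in IV 1.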

How the results depend on the processing

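Between IP and PBS the number of members passing, 1 in the reported fit, was 2 with DESeq2 size factors, with library totals, with totals and TMM taken without pancreatic genes, or with a mean CPM of at least 1. It was 3 with limma on the deposited log2 CPM, 4 with the 2 groups alone, 23 without robust estimation, 28 with DESeq2's Wald test, and 0 with limma voom or with no filter. Leaving out 1 library gave 0 to 11, with 0 without PBS 1, PBS 2 or PBS 3, 4 without IP 2 and 11 without IV 4. Between IV and PBS it was 2 with limma on log2 CPM, 21 without robust estimation, 27 with DESeq2's Wald test, 0 with limma voom, and 0 to 7 on leaving out 1 library, with 0 without PBS 1, PBS 2 or IV 1, 2 without IP 4 and 7 without IV 4. Between IP and IV it was 0 in all 20 alternatives. On leaving out 1 library, the log2 fold change of Rbpjl between IP and PBS ran between -0.27 (without IP 4) and 0.85 (without IP 2), and that of Gcg between IV and PBS between -1.01 (without IV 4) and 5.72 (without PBS 3). The median of all genes between IP and PBS moved by -0.17 with library totals and by -0.16 with limma on log2 CPM. The cause of these changes was not tested. Adjusted p for Bhlha15 ran between 0.00156 and 0.106 (IP and PBS) and between 0.000108 and 0.132 (IV and PBS) over the edgeR, DESeq2 and limma alternatives.

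With the replicate number as a block, 1 member passed between IP and PBS and 0 between IV and PBS, where Gcg turned to -1.30. Deviations from the group means had correlations between -0.40 and 0.10 in same-numbered libraries and between -0.34 and 0.27 in differently numbered ones. With 3 libraries a group, these ranges cannot decide whether the numbers pair mice.

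The 3 libraries a group and the spread of acinar levels within IP and within IV limit every test here. Counts near 0 limit Gcg, Sst, Ppy, Iapp and Cftr most, and IV 2 was the shallowest library.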
